A study of Mus musculus with 12 samples.

Results

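The circadian clock genes Per1, Per2, Per3, Cry1, Cry2, Arntl, Clock, Nr1d1, Nr1d2 and Dbp were examined for N6-methyladenosine (m6A) peaks in mouse lung. A peak was taken as a clock gene peak when the authors assigned it to one of these 10 genes by name or called it on the identifier of one of them. This gave 18 of 27292 OVA peaks and 24 of 26102 PBS peaks, on 9 of the 10 genes. Lung RNA came from female BALB/c mice. OVA mice had been sensitized with ovalbumin and alum and then challenged with ovalbumin aerosol, a model of allergic asthma. PBS mice were the controls and received PBS injections without alum and PBS aerosol, so alum differs between the groups along with ovalbumin. The paper describes lung collection after an airway provocation test with methacholine in anesthetized mice. Each group had 3 mice, and each mouse gave 1 immunoprecipitated (IP) library, in which an antibody against m6A had captured the fragmented RNA, and 1 input library that skipped this capture. The authors deposited 1 peak list per group, so no value of single mice, no error and no test across mice is given here, and the differences between the lists are printed without a replicate check. The time of day at which tissue was taken is not given in the sources used here.

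In the core clock of mammals, the Arntl (Bmal1) and Clock proteins form a transcription factor that binds E-box sequences and drives the Per and Cry genes, whose proteins then inhibit it. Nr1d1 and Nr1d2 (Rev-erb alpha and beta) are nuclear receptors that repress Arntl through ROR elements, and Dbp is a clock output factor that binds D-box sequences. Lung cells, airway epithelium among them, carry this clock, and methylation of clock transcripts is known to affect their processing.

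The list values are the fold enrichment, that is, IP signal divided by input signal, and the log10 of its p value, which moves away from 0 with both the fold enrichment and the number of reads. All clock gene peaks of both lists had an FDR under 0.05. The OVA list had a median of 3.73 over the clock gene peaks, against 5.59 over all its peaks, and the PBS list one of 2.87, against 5.44, both as fold enrichment. These medians count every minor peak: the strongest peak per gene gave a median of 7.32 for OVA and 6.23 for PBS, against 9.12 and 8.78 over all genes with a called peak. Many clock gene peaks were thus weak ones: 9 of the 24 PBS peaks had a fold enrichment under 2, a value that 10.6% of all PBS peaks fell below. In the OVA list this held for 3 of 18, against 10.1% of all peaks. A fold enrichment of at least 10 was reached by 4 OVA and 5 PBS clock gene peaks, while 29.8% and 28.1% of all peaks reached it. By listed region, 12 of 18 clock gene peaks for OVA and 14 of 24 for PBS were labelled 3' UTR, the label of 52.7% of all peaks in both lists. Regions named here are these labels, and they have limits. The Clock site found in both lists is labelled exon 23 of 23 for OVA and 3' UTR for PBS. The OVA Per3 peak at 151012139 to 151012558 is labelled 3' UTR but lies 15121 bp from the RefSeq 3' end of the gene.

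The gene that the annotation assigns goes by distance to a transcript start, whether or not the peak lies on that gene. It differed from the called gene for 8 of the 18 OVA clock gene peaks and 6 of the 24 PBS ones. Over all peaks this share was 22.5% for OVA and 22.8% for PBS. The differing peaks were all those of Per2, assigned to the neighbouring Hes6, of Cry2, assigned to Mapk8ip1, and of Clock, assigned to the pseudogene Ube2n-ps1. A search by assigned name alone would have found none of these 3 genes. All 42 clock gene peaks overlapped the RefSeq position of the gene on which they were called. Coordinates are on GRCm38.

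**Figure D1:**
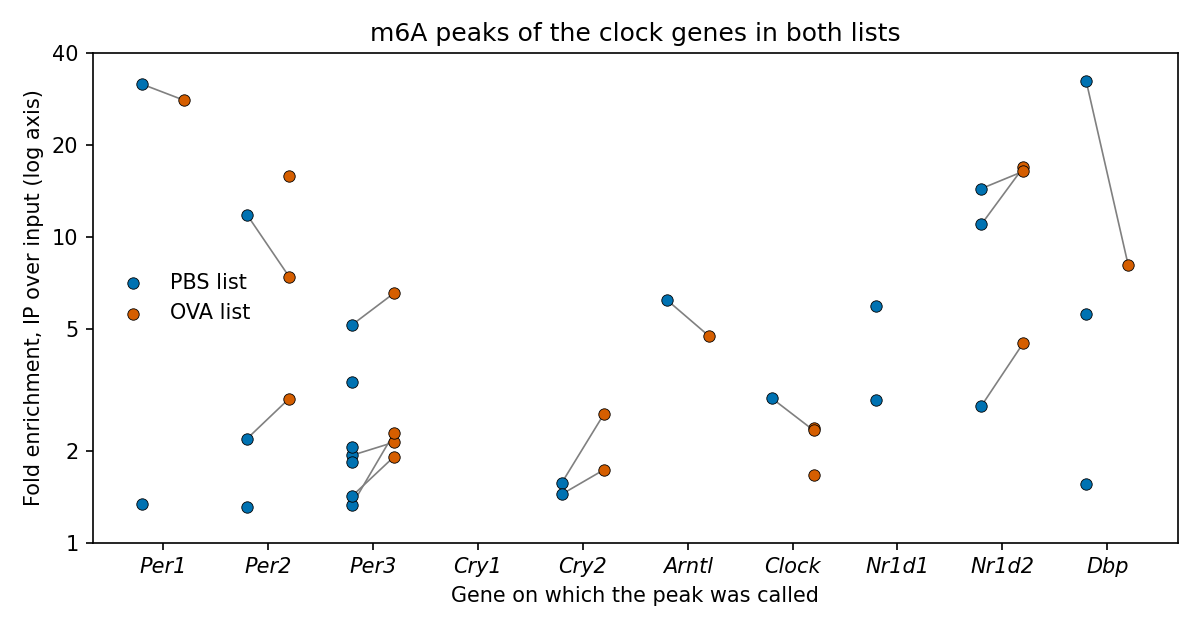
Fold enrichment of IP over input (log axis) of every peak called on the 10 clock genes in the PBS and OVA lists, with grey lines between matched peaks. Dbp has the steepest line, from 32.3 in the PBS list to 8.09 in the OVA list, and Cry1 has no point.

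Among the activators, Arntl had 1 peak in each list, in the 3' UTR at 113313527 to 113313826 on chromosome 7 in the OVA list. Its fold enrichment was 4.75 for OVA and 6.23 for PBS. The log10 p value was -36.6 for OVA and -20 for PBS. The peak was therefore stronger by fold in the PBS list and stronger by p in the OVA list. Clock had 3 OVA peaks and 1 PBS peak, all weak. The 1 found in both lists, at 76216701 to 76216791 on chromosome 5 in the OVA list, had a fold enrichment of 2.33 for OVA and 2.97 for PBS. The other Clock peaks were listed for OVA only, with fold enrichments of 2.37 and 1.67 and log10 p values of -4.61 and -5. They were the only 2 of the 18 OVA clock gene peaks with no overlapping PBS peak.

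The Per genes encode the inhibitors that accumulate with the Cry proteins. Per1 carried a strong 3' UTR peak at 69108493 to 69109511 on chromosome 11 in the OVA list, of 2 exonic blocks. Its fold enrichment was 28.0 for OVA and 31.6 for PBS, and its log10 p value was -443 and -746. By fold enrichment it stood at percentile 96.9 of the OVA list and 98.4 of the PBS list, so this peak was among the strongest in both. A second Per1 peak was in the PBS list only, in exon 19 of 23, with a fold enrichment of 1.34.

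Per2 was covered near its 3' end by 1 long peak in the PBS list and by 2 neighbouring peaks in the OVA list. The PBS peak spanned 91416430 to 91417924 on chromosome 1, with a fold enrichment of 11.8 and a log10 p value of -1010. The OVA peaks, at 91416490 to 91417296 and 91417356 to 91417924, had fold enrichments of 7.41 and 15.8 and log10 p values of -387 and -510. The PBS fold enrichment lay between both OVA values, and the matched pair compares the whole of a peak with a part of it. An internal Per2 peak that starts at 91424257 in both lists had a fold enrichment of 2.96 for OVA and 2.19 for PBS, with log10 p values of -61.9 and -117. The OVA peak is 1 block that ends at 91424466, while the PBS peak has 2 blocks and reaches 91427777, so this pair too compares unlike extents. A weak peak in exon 19, with a fold enrichment of 1.31, was in the PBS list only.

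Per3 had the most peaks, 4 for OVA and 7 for PBS. The strongest was identical in position in both lists, at 151004969 to 151005956 on chromosome 4, in the 3' UTR. Its fold enrichment was 6.55 for OVA and 5.16 for PBS, and its log10 p value was -485 and -994. Here the fold was a little higher in the OVA list while p was lower in the PBS list. The other Per3 peaks had fold enrichments between 1.91 and 2.28 in the OVA list and between 1.33 and 3.36 in the PBS list, and 2 of the PBS peaks had no overlapping OVA peak.

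Of the Cry genes, Cry1 had no peak in either list, which says only that none was called. Cry2 had 2 peaks in each list, all in the 3' UTR and all with log10 p values no further from 0 than -9.03. The peak that starts at 92403646 on chromosome 2 had a fold enrichment of 2.63 for OVA and 1.57 for PBS. The other had 1.73 and 1.44. Cry2 thus ranked low, with its highest fold enrichment at percentile 20.9 of the OVA list and 3.4 of the PBS list.

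The nuclear receptors differed from each other. Nr1d1 had 2 peaks in the PBS list and none in the OVA list. One was in the 3' UTR at 98767932 to 98768171 on chromosome 11, with a fold enrichment of 5.94 and a log10 p value of -82.7. The other, in the 5' UTR at 98774945 to 98775273, had 2.93 and -82.8. The 3' UTR peak lies where Nr1d1 overlaps the RefSeq position of Thra, a thyroid hormone receptor gene, and neither list has a peak called on Thra there. Nr1d1 was 1 of the 9 clock genes with a peak, and 7.22% of all genes with a peak in either list had one in the PBS list alone, so a single such gene among 9 is near the background.

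Nr1d2 had 3 peaks in each list, and each overlapped its counterpart. The peak with the lowest p of all clock gene peaks lay in exon 5 of 8, at 18214757 to 18215445 on chromosome 14 in the OVA list. Its fold enrichment was 16.4 for OVA and 14.4 for PBS, and its log10 p value was -968 and -1850. The 3' UTR peak had a fold enrichment of 16.9 and 11.0, with log10 p values of -239 and -475. Both peaks had the higher fold in the OVA list and the lower p in the PBS list. The last peak, at 18211877 to 18212116 in both lists, had fold enrichments of 4.5 and 2.8 and log10 p values of -94.7 and -87.

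Dbp had the largest difference in fold enrichment of all matched clock gene pairs. Its 5' UTR peak starts at 45705148 on chromosome 7 in both lists and ends at 45705537 for OVA and 45705627 for PBS. The fold enrichment was 8.09 for OVA and 32.3 for PBS, a ratio of 3.99, and the log10 p value was -287 and -864. Only 178 of 20531 matched peaks had a ratio of OVA over PBS as low as this or lower. The PBS peak stood at percentile 98.5 of its list and the OVA peak at 62.7. The PBS list held 2 further Dbp peaks with no OVA counterpart. One, at 45707125 to 45707454, had a fold enrichment of 5.58 and a log10 p value of -158. The other, in the 3' UTR at 45709814 to 45709904, had 1.56 and -6.63 and lies where Dbp overlaps Sphk2, a sphingosine kinase gene. The PBS list has a peak called on Sphk2 over the same bases. The library preparation keeps the strand, but whether peak calling used it is not given in the sources used here, so the gene of origin is uncertain for this peak and for the Nr1d1 peak within Thra.

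**Figure D2:**
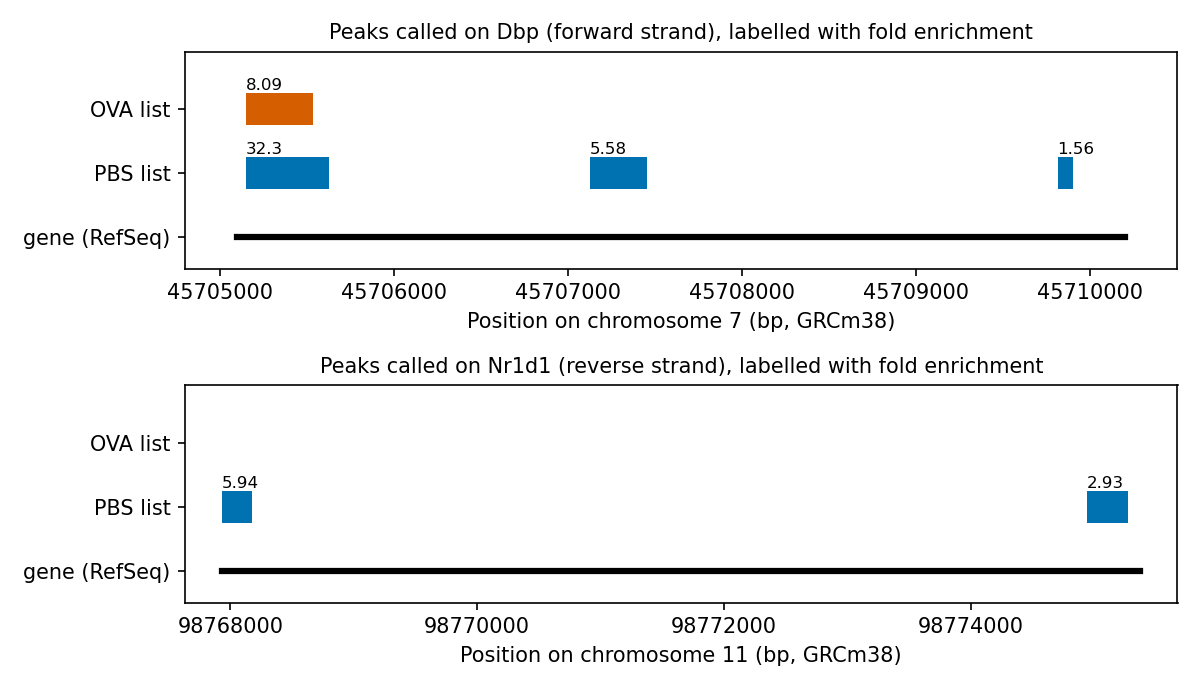
Positions (bp, GRCm38) of the peaks called on Dbp and Nr1d1 in the PBS and OVA lists, above the RefSeq extent of each gene, with the fold enrichment printed at each peak. Dbp has 3 PBS peaks and 1 OVA peak, and Nr1d1 has 2 PBS peaks and no OVA peak.

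Peaks of the lists were compared by overlap of at least 1 bp of their exonic blocks. Of the OVA clock gene peaks, 16 of 18 overlapped a PBS peak, against 80.6% of all OVA peaks. Of the PBS clock gene peaks, 16 of 24 overlapped an OVA peak, against 85.5% of all PBS peaks. The 8 PBS peaks without a counterpart were 1 of Per1, 1 of Per2, 2 of Per3, 2 of Nr1d1 and 2 of Dbp, and the fold enrichment was under 2 for the Per1 and Per2 peaks, 1 of the Per3 peaks and 1 of the Dbp peaks.

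Each peak was then matched to the peak of the other list with the largest block overlap, where this held both ways, which gave 15 clock gene pairs of 20531. Fold enrichment was higher in the OVA list in 10 of the 15, against 61.4% of all matched peaks, and the median log2 ratio of OVA over PBS was 0.26, against 0.13 over all. Past 2-fold, 1 clock gene pair was lower in OVA, that of Dbp, against 4.92% of all pairs, and 0 were higher, against 7.78%. Past 1.5-fold, 2 were lower, against 10.4%, and 4 were higher, against 18.7%. Among the pairs past 1.5-fold, those of Per2, Cry2 and Per3 compare peaks of unlike extents. These counts are near the background and are no result about the clock genes as a group.

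The p values gave another picture, in a comparison chosen after the data were seen. The log10 p value was further from 0 in the PBS list for 10 of the 15 clock gene pairs, against 40.3% of all 20479 pairs with finite values. It was at least 1.5 times as far from 0 for 9 of the 15, against 17.0% of all pairs. The median of this ratio, PBS over OVA, was 1.75 for the clock gene pairs and 0.88 over all pairs. Several of the 15 pairs share a gene, and Per2, Per3 and Nr1d2 each gave more than 1 of the 9. The pairs are therefore not independent of each other, and the shares count peaks rather than genes. The ratio was 3.01 for the Dbp pair, 2.61 for the Per2 pair at the 3' end, whose OVA peak is a part of the PBS peak, 2.05 for the strongest Per3 pair, 1.91 for the strongest Nr1d2 pair and 1.68 for the Per1 pair. Arntl went the other way, with a ratio of 0.55, as did 1 Cry2 pair, at 0.27, 2 of the weaker Per3 pairs, at 0.43 and 0.84, and the weakest Nr1d2 pair, at 0.92. Of these, the Cry2 pair sets 181 bp for OVA against 61 bp for PBS. The Per3 pair at 0.43 sets 420 bp for OVA against 151 bp for PBS, and its OVA peak overlaps a further PBS peak, of fold enrichment 2.06. In 6 of the 10 pairs with the lower p in the PBS list the listed fold enrichment was higher in the OVA list, so for these the lower p did not go with a higher listed enrichment, with the limit of unlike extents for the internal Per2 pair. Among these 6 is a Cry2 pair with nearly equal log10 p values, -6.95 for OVA and -7.01 for PBS, a ratio of 1.01. In the other 4 of the 10 pairs the fold enrichment was also higher in the PBS list. These were pairs of Dbp, Per1, Clock and the Per2 3' end, where the unmatched OVA part, at 15.8, exceeds the PBS value. The lists hold no read counts, so the number of reads behind either group of pairs was not tested.

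**Figure D3:**
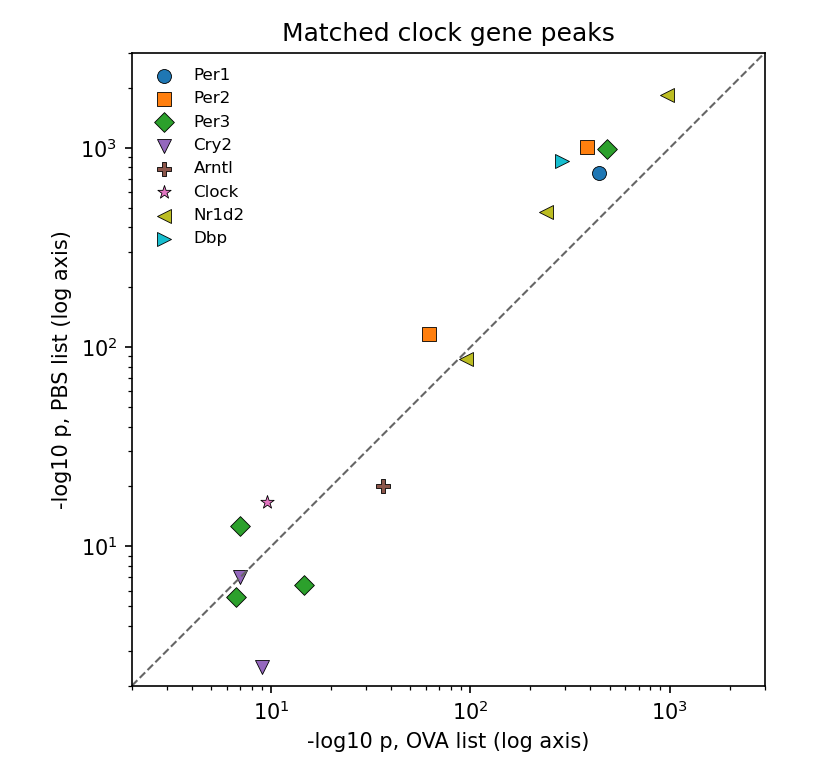
Size of the log10 p value of the 15 matched clock gene peaks in the OVA list (horizontal) and the PBS list (vertical), both on log axes, with a dashed line of equal values. The strongest peaks of Per1, Per3, Nr1d2 and Dbp lie above the line, as does the Per2 pair in which a part of the peak for OVA is set against the whole for PBS, and the Arntl peak lies below it.

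Short stretches of promoters are shown for the members whose window holds a sequence that the clock factors are known to bind. RefSeq windows from 250 bases before to 50 bases after a gene start, on GRCm38.p6, were found for 9 of the 10 genes; Per2 had no entry. Both strands were searched for the E-box CACGTG, the D-box TTATGTAA and its variant TTACGTAA, and the ROR element TAGGTCA. Of 32851 windows, 7.15% hold this E-box, 0.938% the D-box, 0.119% its variant and 2.61% the ROR element. The matches, in capitals on the strand of the gene, were an E-box 166 bases before a Per1 start and one 60 bases before the Cry1 start, D-boxes 205 and 158 bases before a Per3 start, and a ROR element 30 bases after an Arntl start. A match is a description of letters and does not show binding.
Per1, chr11:69098773-69098798, forward strand: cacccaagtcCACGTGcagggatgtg
Cry1, chr10:85185099-85185124, reverse strand: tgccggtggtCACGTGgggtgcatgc
Per3, chr4:151044853-151044880, reverse strand: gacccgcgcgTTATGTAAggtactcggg
Per3, chr4:151044806-151044833, reverse strand: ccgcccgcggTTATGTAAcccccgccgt
Arntl, chr7:113207531-113207557, forward strand: aggcagaaagTAGGTCAgggacggagg

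Of 33 further clock genes, counted by called gene, 26 had a peak in both lists, 1 in the OVA list only, 2 in the PBS list only and 4 in neither. Of all genes with a peak in either list, 10.8% were in the OVA list only and 7.22% in the PBS list only. Rorb, a ROR receptor, and Ciart, a repressor of the Clock complex, had a peak in the PBS list only, with fold enrichments of 2.17 and 1.91. The Rorb peak had a log10 FDR of -1.07 and so missed an FDR of 0.05, and each list has a further peak that is assigned to Ciart but called on another gene. Wdr5, a chromatin cofactor, had one in the OVA list only, at 1.59. All 3 were weak peaks. Of 42 matched pairs, 2 were past 2-fold lower in OVA, against 4.92% of all pairs, and 1 was higher, against 7.78%. Gsk3b, a kinase of clock proteins, had 2.4 for OVA and 15.8 for PBS, but the PBS peak spans a further OVA peak of 13.2. Timeless had 16.2 and 46.9, in a peak assigned to Apon, but its log10 p value was further from 0 in the OVA list, at -226 against -151. Bhlhe41 (Dec2), a repressor, had 13.9 and 4.05. The highest fold enrichments per gene were 20.4 for Usp2, 18.5 for Fbxl21 and 18.0 for Csnk1e in the OVA list, and 46.9 for Timeless, 18.0 for Sirt1 and 17.0 for Rora in the PBS list. The Fbxl21 peak had a log10 p value of only -5.35, against -72.7 for Usp2 and -274 for Csnk1e. The log10 p value was further from 0 in the PBS list for 20 of these 42 pairs, against 40.3% of all pairs, and at least 1.5 times as far for 11, against 17.0%. The 42 pairs lie on 26 genes, so here too some pairs share a gene.

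Of 15 lung markers, 12 had a peak in both lists, among them Sftpb, Scgb1a1 and Cldn5. Of 4 heart muscle markers, Myh6 and Tnnt2 had a peak in the PBS list only. Among 4 eosinophil markers only Ccr3 had a peak, with a log10 p value of -254 for OVA and -2.7 for PBS. Of 4 macrophage markers 1 had an OVA peak and 2 had a PBS peak. Chil3 was the 1 with a peak in the PBS list only, with a fold enrichment of 1.75 and a log10 p value of -4.51. Of 4 T and B cell markers 3 had a peak in both lists. Taking the lowest log10 p of each gene with a peak in both lists, 6 of 12 lung markers were further from 0 in the PBS list, among them Cdh5, at -2060 for OVA and -3410 for PBS, and Scgb1a1, at -7640 and -11200. The other 6 were further from 0 in the OVA list, among them Col1a1, at -1060 and -303, and Sftpd, at -265 and -82.6. The 1 macrophage marker, Mrc1, at -135 and -17.4, and all 3 T and B cell markers, such as Ms4a1, at -174 and -26.7, were further from 0 in the OVA list. The part of cell makeup in the clock gene values was not tested.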

How the data were processed

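Lung RNA of 3 OVA and 3 PBS mice gave 12 libraries. The authors used HISAT2 for mapping, exomePeak for peak calling and ChIPseeker for annotation. Versions and the combination of replicates are not given in the sources used here. The deposited fold enrichment is a ratio of IP over input. The deposited score is the log10 of p or of the FDR. The deposited widths, distances and block numbers are in bp or counts. Listed starts count from 0 and were printed from 1, since 386 OVA starts plus 1 equal a RefSeq gene start, against 47 as listed. No read depth is in the lists, so no interval is given for a single fold enrichment. The authors' own tests between the groups were not used here.

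Identifiers of all 10 genes came from the gene name table. Further clock genes and markers were counted by called gene, and those with a peak in 1 list only are named. Further clock genes with a pair past 2-fold, or with the 3 highest fold enrichments per list at an FDR under 0.05, are also named. The members and lists were chosen with earlier results of these data known. Overlap code was tested on simulated data. Python 3.11.15, numpy 2.4.6, pandas 2.3.3, scipy 1.17.1 and matplotlib 3.10.9 were used. Alternatives were an FDR or fold minimum, other overlaps, gene definitions, pseudocounts and centring.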

Additional observations from a re-analysis of the deposited data

How the results depend on the processing

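No paired analysis was possible because the lists hold no values of single mice, and leaving out replicates was not possible for the same reason. Under 34 alternative settings the value stayed within 1.5 times, or, for medians, within the 95% interval from order statistics of the peaks, and under 10 it did not. These intervals are wide, from 2.28 to 8.09 for the OVA median fold enrichment, 1.57 to 5.94 for the PBS one and -0.35 to 0.62 for the median log2 ratio, and cover the spread between peaks only. By assigned gene name alone, the OVA list held 10 clock gene peaks. On protein-coding transcripts alone there were 4 OVA and 6 PBS peaks, against 41.8% and 42.5% of all peaks, and 3 in each list lay in the 3' UTR. The transcript type is that of the assigned gene, so the Cry2 peaks of each list count here only through Mapk8ip1. A fold enrichment of at least 2 left 15 PBS peaks, and thus as many as in the OVA list. Identical coordinates were shared by 2 peaks of each list, against 10.3% of all OVA and 10.7% of all PBS peaks. The strongest peak per gene had a median fold enrichment of 6.23 in the PBS list and of 7.32 in the OVA list, the latter within its interval. Centred on all matched peaks, the median log2 ratio was 0.13. Past 1.5-fold, 6 matched peaks differed, 2 lower and 4 higher in OVA, against 10.4% and 18.7% of all matched peaks. The lower counts come from settings that keep fewer peaks by construction, and the 1.5-fold limit counts more pairs by construction. An FDR under 0.05 and the called gene alone removed no clock gene peak and so could not change a value. The 34 settings include these, so their number is no measure of stability. The p value comparison was added after the data were seen, as was its restriction to pairs with a log10 p of -30 or lower, in which 7 of 8 pairs had the lower p in the PBS list, against 40.6% of all such pairs. This restriction drops the Arntl pair through its PBS value alone and keeps several pairs on the same gene, as for Nr1d2 and Per2, so it is no independent check.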

Other observations

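4 further clock transcription factors were chosen after their values were seen. Tef and Hlf are relatives of Dbp that bind the same D-box sequences. The strongest Tef peak had a log10 p value of -1580 for OVA and -3660 for PBS, with fold enrichments of 11.5 and 9.01. Hlf had 2 OVA and 5 PBS peaks, and its matched pairs had log10 p values of -17.9 and -30.4, and of -6.31 and -29.2, the latter with a PBS peak that spans 90340700 to 90345572 and an OVA peak of 90340790 to 90340969 within it. For these pairs the lower p was in the PBS list, while another Tef pair, in the 5' UTR, had -13.2 for OVA and -7.99 for PBS, with fold enrichments of 3.4 and 1.72. Bhlhe40 (Dec1), a repressor, and Nfil3, which competes with Dbp for D-boxes, went the other way. The Bhlhe40 3' UTR peak had -2920 for OVA and -889 for PBS, with fold enrichments of 6.93 and 6.08. The Nfil3 peak had -819 and -129, with 14.4 and 10.6, but the PBS list splits it into 2 peaks. No test was made of these differences.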
